A study of Mus musculus with 14 samples.

Results

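The genes described here are 10 components of fibroblast growth factor (FGF) signalling, measured as RNA and as chromatin over the gene body in mouse tumor-derived cells. They were the receptors Fgfr1 and Fgfr2, the ligands Fgf2, Fgf7 and Fgf10, and the feedback inhibitors Spry2, Spry4, Spred1, Dusp6 and Phlda1. They were found by gene symbol, which matched 10 of the 55433 rows of the RNA table and 10 of the 22470 gene bodies of the chromatin table. Fgf7 fell below the filter on low values, so 9 of the 18263 tested genes were among them.

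FGF ligands bind receptor tyrosine kinases at the cell surface together with heparan sulfate, and the activated receptor passes its signal through adaptor proteins to RAS and the kinases RAF, MEK and ERK. ERK activity switches on early response transcription factors and also genes whose products dampen the same pathway, such as the Sprouty and SPRED proteins and the ERK phosphatase Dusp6. Fgf7 and Fgf10 are typically made by mesenchymal cells and act on the epithelial splice form of Fgfr2, while Fgf2 binds mainly the mesenchymal forms of the receptors.

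The cells came from C57BL/6 mice, were at passages 6 to 8, and carried either a guide RNA against the histone methyltransferase gene Nsd3 (sgNSD3) or a control guide (sgControl). Per the labels, there were 3 total RNA libraries per condition, and chromatin was profiled in 4 H3K36me2, 2 H3K27me3 and 2 IgG libraries. The question set by this design is how RNA and these histone marks differ when Nsd3 is targeted. No label gives the tumor type, the promoter that drove the guides or the Cas protein, or whether the cells were a single clone. Separate cultures are not stated for the 3 RNA libraries of a condition, and the p-values therefore reflect spread between libraries that may be technical.

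Nsd3, the targeted gene, had more RNA and not less in the libraries labelled sgNSD3. It had 21989, 22012 and 21837 normalized counts in sgNSD3 libraries and 14568, 14402 and 14675 in sgControl libraries, where a normalized count is a recovered read count divided by the library's size factor. The 1.51-fold difference had an adjusted p of 5.86e-14 (limma on the deposited log2 values, Benjamini-Hochberg over all tested genes). Which part of Nsd3 the guide cuts is not in the labels, and a gene-level RNA count does not measure the protein, so each direction below rests on the label of the library.

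The 6 RNA libraries held between 20294828 and 21863833 counts each. The sgControl libraries differed more among themselves than the sgNSD3 libraries did: a chi-square of counts over genes gave 2.9 to 9.95 per degree of freedom between sgControl pairs and 1.33 to 1.45 between sgNSD3 pairs. The sgControl pairs that included replicate 1 gave 6.62 and 9.95, so values that change without this library are given where they occur. Pairs of 1 sgNSD3 and 1 sgControl library gave 7.39 to 8.32, so sgControl replicates 1 and 3, at 9.95, lay further apart than any such pair. Mitochondrial mRNA made up 0.637% to 0.674% of counts in sgNSD3 libraries and 0.651% to 0.864% in sgControl libraries. Of all tested genes, 11.9% were called at an adjusted p under 0.05, with 5.44% higher and 6.44% lower in sgNSD3 libraries, and 28.5% had conditions whose libraries did not overlap. Against these shares, 3 of the 9 tested FGF genes were called, 1 higher and 2 lower, and 4 of 9 had conditions that did not overlap. The median log2 fold of the 9 genes was -0.05 (sgNSD3 minus sgControl), beside 0.00 for all tested genes.

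**Figure D1:**
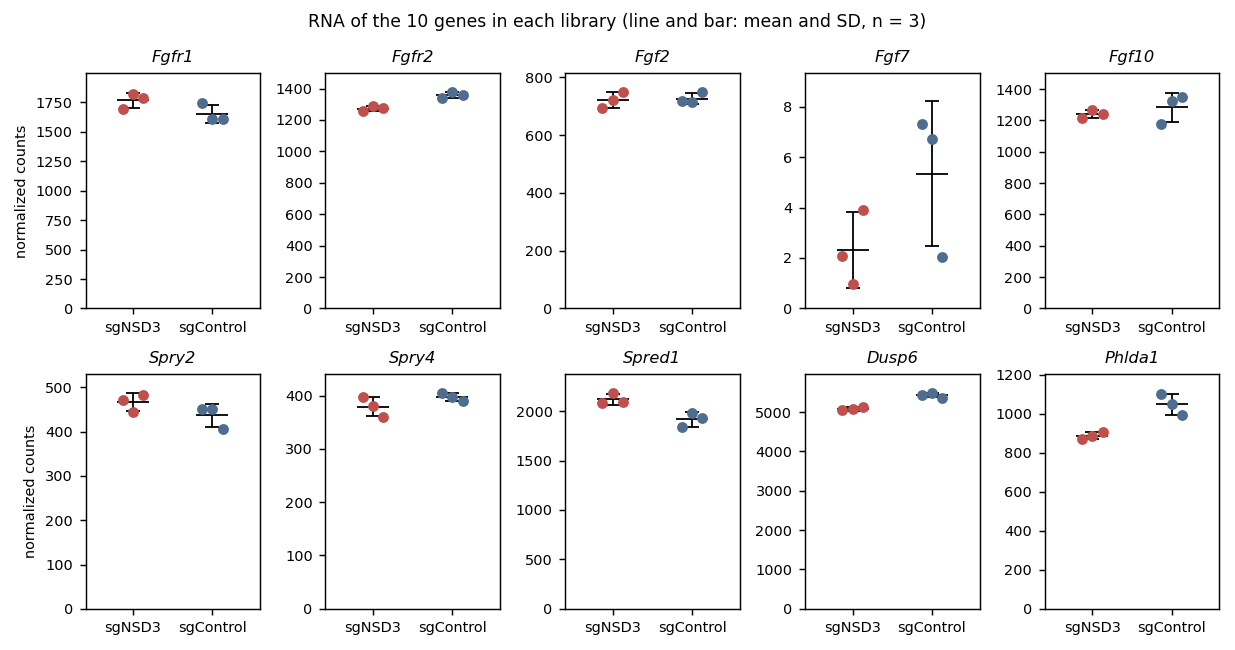
Normalized counts of the 10 genes in each RNA library, with sgNSD3 left of sgControl, 1 point per library, and the mean and SD of 3 libraries as lines. Phlda1, Dusp6 and the uncalled Fgfr2 sit lower and Spred1 higher in sgNSD3 libraries without overlap. Most differences are small beside the axis range, those of Dusp6 and Fgfr2 among them, and Fgf7 stays under 8 normalized counts in each library.

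Both receptors were expressed, with over 1000 reads in each library, and neither was called. Fgfr1 (ENSMUSG00000031565.18, chr8:25518759-25575718 in GRCm38.p6, the build that mm10 names) had 1697, 1818 and 1788 normalized counts in sgNSD3 libraries and 1743, 1612 and 1608 in sgControl libraries. The conditions overlapped, because sgControl replicate 1 lay above sgNSD3 replicate 1. The means were 1768 ± 63.0 in sgNSD3 and 1654 ± 77.0 in sgControl libraries (SD, n = 3 each), a log2 fold of 0.10 ± 0.04 (SE) with an adjusted p of 0.142 (limma). Without sgControl replicate 1 the adjusted p was 0.0208 and Fgfr1 was called higher in sgNSD3 libraries. Fgfr1 lies near the targeted gene, with 25.9 kb between its span and that of Nsd3 on the same chromosome. Whether other genes lie between these spans was not looked up. Fgfr1 shares 26088 bases with the long non-coding gene Gm31288, which has no RNA values here. It also shares 7411 bases with the long non-coding gene Gm16159. That gene averaged 76.1 normalized counts in sgNSD3 libraries and 49.0 in sgControl libraries (adjusted p = 0.0307, limma). The sources used here do not say whether counting used strand, so reads in the shared bases cannot be assigned between the genes.

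Fgfr2 (ENSMUSG00000030849.18, chr7:130162451-130266808) had 1257, 1286 and 1276 normalized counts in sgNSD3 libraries and 1339, 1375 and 1360.0 in sgControl libraries. Each sgNSD3 library lay below each sgControl library, by a small margin. The means were 1273 ± 14.8 in sgNSD3 and 1358 ± 18.1 in sgControl libraries (SD, n = 3 each), a log2 fold of -0.09 ± 0.04 (SE; 95% confidence interval -0.18 to -0.01). The adjusted p was 0.139 and ranged from 0.102 to 0.328 over the alternative settings, so Fgfr2 was not called in any of them (limma). A count per gene does not separate the epithelial and mesenchymal splice forms of Fgfr2, which differ in the ligands they bind. In these bulk libraries a lower level can come from fewer cells that express a gene or from less RNA per cell, and the 2 cannot be told apart.

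None of the 3 ligands was called. Fgf2 (ENSMUSG00000037225.13, chr3:37348477-37410106), a ligand of the mesenchymal receptor forms, had 695.5, 721 and 749 normalized counts in sgNSD3 libraries and 719, 713 and 748 in sgControl libraries. The 2 sets of values nearly coincided, with a log2 fold of -0.01 ± 0.05 (SE; 95% confidence interval -0.12 to 0.10) and an adjusted p of 0.938 (limma). The sign of that fold changed under quantile normalization and in 2 of the 6 fits that left out a library. Its span shares 5125 bases with Nudt6 on the opposite strand, which averaged 197 normalized counts in sgNSD3 libraries and 192 in sgControl libraries.

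Fgf10 (ENSMUSG00000021732.14, chr13:118714699-118792573), a mesenchymal ligand of the epithelial form of Fgfr2, had 1216, 1266 and 1242 normalized counts in sgNSD3 libraries and 1178, 1324 and 1348 in sgControl libraries. The sgNSD3 libraries all lay inside the range of the sgControl libraries. The log2 fold was -0.05 ± 0.05 (SE; 95% confidence interval -0.15 to 0.05) with an adjusted p of 0.602 (limma).

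Fgf7 (ENSMUSG00000027208.14, chr2:126034658-126091185), the other ligand of the epithelial form of Fgfr2, was close to the detection limit. It had 2, 1 and 4 reads in sgNSD3 libraries and 7, 7 and 2 reads in sgControl libraries. Summed over the libraries these were 7 reads in sgNSD3 and 16 in sgControl libraries, a ratio of 0.431 with a 95% counting interval of 0.150 to 1.11 that covers counting error only. The limit that 0 reads would allow, 3 counts, came to 2.87 to 3.13 normalized counts per library, and a difference in Fgf7 was not detectable at this depth. The whole Fgf7 span lies inside that of Fam227b on the opposite strand, which averaged 17.7 normalized counts in sgNSD3 libraries and 20.5 in sgControl libraries.

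**Figure D2:**
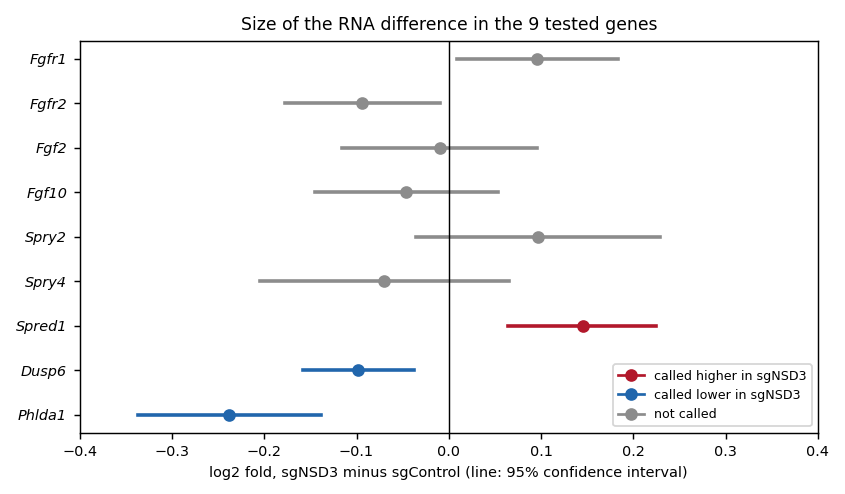
Log2 fold of the 9 tested genes, sgNSD3 minus sgControl, on the horizontal axis, with the 95% confidence interval as a line (log2 of normalized counts plus 1, 3 libraries per condition). Phlda1 at -0.24 and Dusp6 at -0.10 lie below 0 and Spred1 at 0.14 lies above it. The intervals of Fgfr1 and Fgfr2 miss 0 narrowly on opposite sides without a call after adjustment.

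Only 2 receptors and 2 ligands were tested, so the share of calls was not compared between roles. The 5 feedback inhibitors held all 3 calls among the FGF genes, beside 11.9% of all tested genes called. These calls in feedback inhibitors differed in direction. Because transcription of such genes follows ERK activity, promoter sequence is shown for those of the 10 genes found to carry CGGAA, the core letters of sites that ETS factors bind. ETS factors are transcription factors, some of which ERK phosphorylates. The sequences are RefSeq promoters in GRCm38.p6, from 250 bases before to 50 after the annotated start, written 5′ to 3′ on the strand of the gene, with each CGGAA on either strand in capitals (TTCCG where it lies on the other strand). The first is that of Spred1 at chr2:117120821-117121120 on the plus strand, the second that of Dusp6 at chr10:99262981-99263280 on the plus strand, and the last that of Spry2 at chr14:105896770-105897069 on the minus strand.
Spred1: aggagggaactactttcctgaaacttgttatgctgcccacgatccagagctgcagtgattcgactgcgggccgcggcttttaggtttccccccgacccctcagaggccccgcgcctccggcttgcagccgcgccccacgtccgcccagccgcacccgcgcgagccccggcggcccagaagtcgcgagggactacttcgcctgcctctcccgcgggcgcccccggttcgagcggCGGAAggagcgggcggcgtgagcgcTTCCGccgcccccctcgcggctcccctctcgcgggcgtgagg
Dusp6: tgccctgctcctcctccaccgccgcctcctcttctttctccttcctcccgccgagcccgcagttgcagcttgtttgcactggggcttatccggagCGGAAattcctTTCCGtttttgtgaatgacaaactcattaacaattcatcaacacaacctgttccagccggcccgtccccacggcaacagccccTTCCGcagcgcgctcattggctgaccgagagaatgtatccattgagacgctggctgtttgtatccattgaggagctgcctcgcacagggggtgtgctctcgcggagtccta
Spry2: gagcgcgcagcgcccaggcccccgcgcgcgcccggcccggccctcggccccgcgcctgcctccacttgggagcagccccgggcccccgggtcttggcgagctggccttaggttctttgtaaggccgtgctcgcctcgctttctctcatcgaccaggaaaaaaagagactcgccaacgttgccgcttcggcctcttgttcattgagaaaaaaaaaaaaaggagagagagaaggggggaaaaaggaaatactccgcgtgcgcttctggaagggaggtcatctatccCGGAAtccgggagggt

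The Spred1 window held 2 matches, 1 on each side of the start. The Dusp6 window held 3, all before the start, and the Spry2 window held 1, after the start. No CGGAA was in the windows of Fgfr2, Fgf2, Fgf7 or Fgf10, and 29.9% of all 32851 promoters in RefSeq's table held at least 1. The letters TGANTCA, bound by AP-1 factors (7.81% of all promoters), and TGACGTCA, bound by CREB factors (1.79%), were in none of these 7 windows. CCAAT (37.4% of all promoters) was in those of Dusp6 and Fgf7; both strands were searched for each motif, and no 2 of the motifs overlap in the printed windows. Spred1, higher in sgNSD3 libraries, and Dusp6, lower there, both carry CGGAA, and so does Spry2, which was not called. The windows also differed in composition: G and C made up 72.3% in Spred1, 57.3% in Dusp6 and 62.7% in Spry2, with 40, 19 and 28 CpG dinucleotides, beside medians of 52.7% and 7 over all promoters. A match gives letters in a window, not a bound site. Fgfr1, Phlda1 and Spry4 were not searched.

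Phlda1 (ENSMUSG00000020205.8, chr10:111506286-111508649), a pleckstrin homology-like protein whose RNA is induced by growth factor signalling, fell the most of the tested FGF genes. It had 871, 887 and 907 normalized counts in sgNSD3 libraries and 1102, 1048 and 996 in sgControl libraries. The highest sgNSD3 library lay below the lowest sgControl library. The means of 888 ± 18.04 in sgNSD3 and 1048 ± 53.2 in sgControl libraries (SD, n = 3 each) differed 1.18-fold, a log2 fold of -0.24 ± 0.05 (SE; 95% confidence interval -0.34 to -0.14) with an adjusted p of 0.00114 (limma). It was called lower in each alternative setting, with adjusted p between 0.000294 and 0.014. In size the change was ordinary among the calls of this comparison: of 2170 called genes, 1012 had a smaller absolute log2 fold.

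Dusp6 (ENSMUSG00000019960.8, chr10:99263231-99267489), the phosphatase that inactivates ERK in the cytoplasm, fell slightly in sgNSD3 libraries. It had 5041, 5070 and 5119 normalized counts in sgNSD3 libraries and 5436, 5494 and 5369 in sgControl libraries. The conditions did not overlap, and the spread within each was the smallest of the 9 tested genes, at 0.771% of the mean in sgNSD3 libraries and 1.15% in sgControl libraries. The means of 5076 ± 39.1 in sgNSD3 and 5433 ± 62.5 in sgControl libraries (SD, n = 3 each) differed 1.07-fold, a log2 fold of -0.10 ± 0.03 (SE) with an adjusted p of 0.0256 (limma). The call was lost under quantile normalization (adjusted p = 0.0918), scaling by library total (0.0588) and a fit without the mean-variance trend (0.0602), and in 4 of the 6 fits that left out a library: sgNSD3 replicate 1 (0.125), 2 (0.104) or 3 (0.0775) or sgControl replicate 2 (0.0804). The log2 fold kept its sign in each of them. Dusp6 shares 626 bases with the non-coding gene Gm34921 on the opposite strand, which averaged 126.4 normalized counts in sgNSD3 libraries and 129.8 in sgControl libraries.

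Spred1 (ENSMUSG00000027351.14, chr2:117121071-117182279), which brings neurofibromin to the membrane to switch RAS off, was the FGF gene called higher. It had 2084.5, 2180.4 and 2093 normalized counts in sgNSD3 libraries and 1836, 1985 and 1932 in sgControl libraries. The lowest sgNSD3 library lay above the highest sgControl library. The means of 2119 ± 53.1 in sgNSD3 and 1918 ± 75.2 in sgControl libraries (SD, n = 3 each) differed 1.10-fold, a log2 fold of 0.14 ± 0.04 (SE; 95% confidence interval 0.06 to 0.23) with an adjusted p of 0.0116 (limma). Without sgNSD3 replicate 2, its highest library, the adjusted p was 0.0978 and the call was lost.

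The 2 Sprouty genes, whose products block signalling between the receptor and RAF, were not called. Spry2 (ENSMUSG00000022114.5, chr14:105891947-105896819) had 471, 445 and 484 normalized counts in sgNSD3 libraries and 452, 451 and 407 in sgControl libraries, a log2 fold of 0.10 ± 0.06 (SE) with an adjusted p of 0.392 (limma). Its conditions overlapped.

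Spry4 (ENSMUSG00000024427.7, chr18:38586247-38601347) had 397, 380 and 361 normalized counts in sgNSD3 libraries and 405, 397 and 391 in sgControl libraries, a log2 fold of -0.07 ± 0.07 (SE) with an adjusted p of 0.58 (limma). Its conditions overlapped too. The 95% confidence intervals ran from -0.04 to 0.23 for Spry2 and from -0.21 to 0.07 for Spry4, so a rise of the size of that in Spred1 lies within the interval of Spry2, and a fall of the size of that in Dusp6 within that of Spry4. Over the 9 tested genes the spread within a condition was 0.771% to 4.77% of the mean in sgNSD3 libraries and 1.15% to 7.16% in sgControl libraries.

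The rest of the FGF family was described from lists of pathway genes. Of 19 other FGF ligands, 8 were tested, 0 were called higher and 2 lower, beside 5.44% higher and 6.44% lower of all tested genes. The median log2 fold of the 8 was -0.01. Fgf5, a ligand best known for ending hair growth, fell to 710.0, 795 and 766 normalized counts in sgNSD3 libraries, against 981, 977 and 922.5 in sgControl libraries. That 1.27-fold difference (means 757 ± 43.2 in sgNSD3 and 960.1 ± 32.6 in sgControl libraries, SD, n = 3 each) had an adjusted p of 3.54e-05 (limma) and held in each alternative. It was larger than the differences in Fgf2 and Fgf10, and whether the sizes differ was not tested. Fgf17, an FGF8 subfamily ligand, had 8, 13 and 11 reads in sgNSD3 libraries and 24, 24 and 25 in sgControl libraries (2.33-fold lower, adjusted p = 0.00506, limma). Fgf18 averaged 153.5 normalized counts in sgNSD3 and 136 in sgControl libraries and was not called (adjusted p = 0.332, limma), nor was Fgf1, at 59.0 in sgNSD3 and 47.3 in sgControl libraries (0.258). At an unadjusted p under 0.05, 0 ligands of this list were higher and 3 lower, and a voom fit called 0 and 2. Fgf3, Fgf6 and Fgf12 had 0 reads in the 6 libraries, and the other 8 ligands lay below the filter.

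Of 7 other receptors and co-receptors, 3 were tested and 0 were called, beside 11.9% of all tested genes. The median log2 fold of the 3 was 0.01. Fgfr3 averaged 392 ± 34.1 normalized counts in sgNSD3 libraries and 401 ± 40.6 in sgControl libraries (SD, n = 3 each; adjusted p = 0.854, limma). Fgfrl1, the receptor that lacks a kinase domain, averaged 383 ± 4.2 in sgNSD3 libraries and 380.1 ± 30.2 in sgControl libraries (adjusted p = 0.945, limma). The count was also 0 at an unadjusted p under 0.05 and in a voom fit. Fgfr4 and the Klotho co-receptors Kl and Klb lay below the filter.

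**Figure D3:**
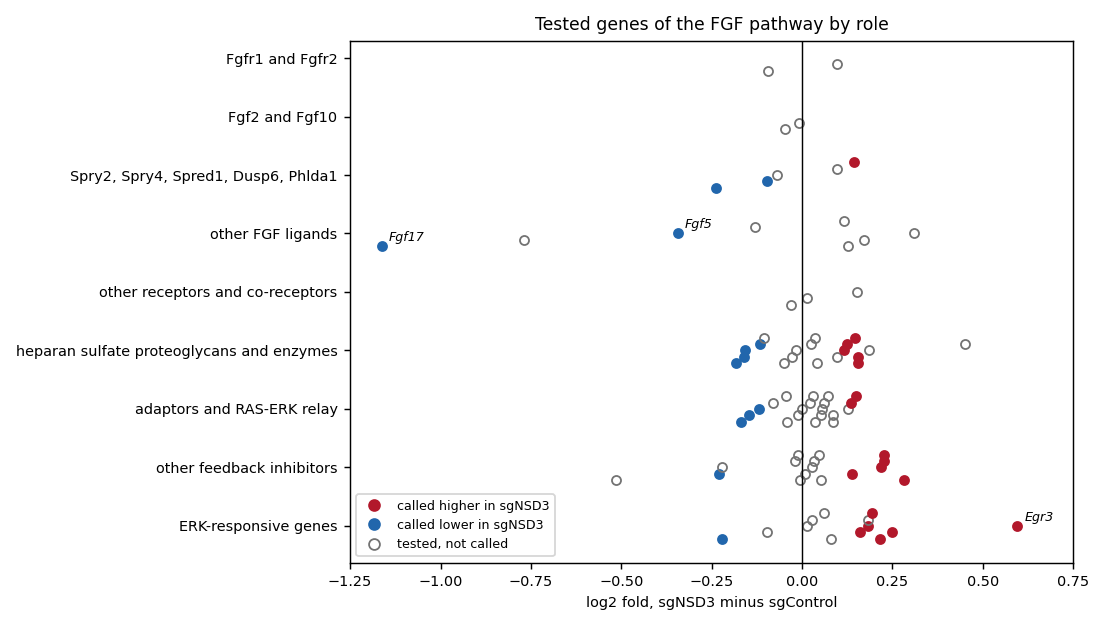
Log2 fold (sgNSD3 minus sgControl) of the tested genes of the FGF pathway on the horizontal axis, 1 point per gene, in rows by role. Filled points are called at an adjusted p under 0.05; 0 of the 4 tested receptors and ligands among the 10 genes are filled, Fgf5 and Fgf17 are the filled ligands, and 6 of the 13 ERK-responsive genes are filled to the right of 0.

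Heparan sulfate proteoglycans and the enzymes that build or trim their chains, which FGFs need for receptor binding, were called in both directions. Of 20 genes 19 were tested, 5 were higher and 4 lower, beside 5.44% higher and 6.44% lower of all tested genes. The median log2 fold of the list was 0.04. Perlecan (Hspg2) averaged 61180 ± 675 normalized counts in sgNSD3 libraries and 55000 ± 2285 in sgControl libraries (SD, n = 3 each; adjusted p = 0.00103, limma), but under quantile normalization its sign turned and its adjusted p was 0.519. The membrane proteoglycan Sdc4 was 1.11-fold higher (11320 ± 143 in sgNSD3 and 10230 ± 232 in sgControl libraries, adjusted p = 0.000717, limma), while Sdc1 was 1.14-fold lower (1822 ± 19.1 in sgNSD3 and 2070 ± 82.1 in sgControl libraries, adjusted p = 0.00143, limma). Sulf2, which removes sulfate from the chains, was 1.12-fold lower (2220.0 in sgNSD3 and 2476 in sgControl libraries, adjusted p = 0.00528, limma), a call lost without sgNSD3 replicate 1 (0.0601). Hs6st2, which adds sulfate, was 1.08-fold lower (5572 in sgNSD3 and 6037 in sgControl libraries, adjusted p = 0.0107, limma). That call was lost under quantile normalization (0.0609) and without sgNSD3 replicate 2 (0.0561) or 3 (0.0898) or sgControl replicate 2 (0.0593). The chain-building enzyme Ext1 was not called (6951 in sgNSD3 and 6750.0 in sgControl libraries, adjusted p = 0.393, limma). Leaving out a library gave between 3 and 6 higher and between 2 and 5 lower calls in this list.

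Of 20 adaptors and kinases of the RAS and ERK relay, all tested, 2 were called higher and 3 lower. The shares over all tested genes were 5.44% and 6.44%, and the median log2 fold of the list was 0.03. The adaptor Shc1 was 1.12-fold lower in sgNSD3 libraries (4596 ± 45.6 in sgNSD3 and 5162 ± 74.96 in sgControl, SD, n = 3 each; adjusted p = 0.000269, limma). The MEK1 gene Map2k1 was 1.11-fold higher (2851 ± 60.2 in sgNSD3 and 2569 ± 3.54 in sgControl libraries, adjusted p = 0.00274, limma). The ERK1 gene Mapk3 was 1.11-fold lower (2454 ± 21.9 in sgNSD3 and 2717 ± 80.9 in sgControl libraries, adjusted p = 0.00467, limma). Braf was 1.10-fold higher (2448 ± 30.4 in sgNSD3 and 2229 ± 128 in sgControl libraries, adjusted p = 0.0196, limma), and its adjusted p was 0.0519 to 0.0963 in the 6 alternatives that lost the call. Those 6 comprised scaling by library total, a voom fit and the fits without sgNSD3 replicate 1, 2 or 3 or sgControl replicate 1. The phosphatase gene Ptpn11 was not called (5274 in sgNSD3 and 5312 in sgControl libraries, adjusted p = 0.875, limma).

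Of 17 other feedback inhibitors, 16 were tested, 5 were called higher and 1 lower. The shares over all tested genes were 5.44% and 6.44%, and the median log2 fold of the list was 0.03. Flrt2, whose family of membrane proteins binds FGF receptors, had 6080, 6128 and 6099 normalized counts in sgNSD3 libraries and 5016, 5209.5 and 5512 in sgControl libraries (1.16-fold higher, adjusted p = 3.13e-05, limma). Its paralogue Flrt1 was 1.22-fold higher (441 in sgNSD3 and 363 in sgControl libraries, adjusted p = 0.00524, limma), with an adjusted p of 0.0504 without sgNSD3 replicate 2. In Xenopus the relative Flrt3 is known to promote FGF signalling, although the list groups the family with inhibitors. The 2 RAS GTPase-activating proteins of the list rose. Rasa1 was 1.17-fold higher (1506 ± 17.6 in sgNSD3 and 1286 ± 12.5 in sgControl libraries, adjusted p = 0.00022, limma). Neurofibromin (Nf1), the partner of Spred1, was 1.10-fold higher (5335 ± 57.4 in sgNSD3 and 4847 ± 186 in sgControl libraries, adjusted p = 0.00376, limma). Dusp7, an ERK phosphatase of the same family as Dusp6, was the gene called lower (529 in sgNSD3 and 621 in sgControl libraries, 1.17-fold, adjusted p = 0.0113, limma). That call was lost without sgNSD3 replicate 1 (0.0503) or 3 (0.0702) or sgControl replicate 1 (0.0577). Dusp1, a nuclear phosphatase, had 10370.0 ± 169.9 normalized counts in sgNSD3 and 10170.0 ± 232 in sgControl libraries and was not called (adjusted p = 0.604, limma).

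The genes of the list known to respond to ERK, most of them early response transcription factors, were mostly higher where called. Of 14, 13 were tested, 6 were called higher and 1 lower, beside 5.44% higher and 6.44% lower of all tested genes. The median log2 fold was 0.16, and leaving out a library gave 6 to 8 higher and 1 lower. Shares over all tested genes include genes with few counts, and genes of like level were not compared. The heparan sulfate, relay and other feedback inhibitor lists also exceeded the 11.9% called of all tested genes. Their calls were 5 higher and 4 lower of 19, 2 and 3 of 20, and 5 and 1 of 16, in that order. ERK activity itself was not tested. Egr3 had the largest difference of the ERK-responsive genes (1.51-fold higher, adjusted p = 3.56e-08, limma). It had 775, 847 and 764.5 normalized counts in sgNSD3 libraries and 536, 507 and 534 in sgControl libraries. Egr1 was 1.14-fold higher (12690 ± 167 in sgNSD3 and 11180 ± 88.0 in sgControl libraries, SD, n = 3 each; adjusted p = 3.25e-05, limma). Fosb was 1.16-fold higher (23440 ± 433 in sgNSD3 and 20200 ± 1200 in sgControl libraries, adjusted p = 5.61e-05, limma). Fos was 1.12-fold higher (15020 ± 203 in sgNSD3 and 13450 ± 528 in sgControl libraries, adjusted p = 0.000523, limma). Myc was the gene called lower, at 1226 ± 46.3 in sgNSD3 libraries and 1431 ± 112 in sgControl libraries (1.17-fold, adjusted p = 0.00313, limma). Junb was not called (5093 in sgNSD3 and 4821 in sgControl libraries, adjusted p = 0.166, limma), except under quantile normalization (0.0439) and without sgControl replicate 1 (0.00753). Etv4, Etv5, Fosl1, Ier2 and Ier3 were not called either (adjusted p = 0.699, 0.269, 0.938, 0.712 and 0.262 in that order, limma).

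**Figure D4:**
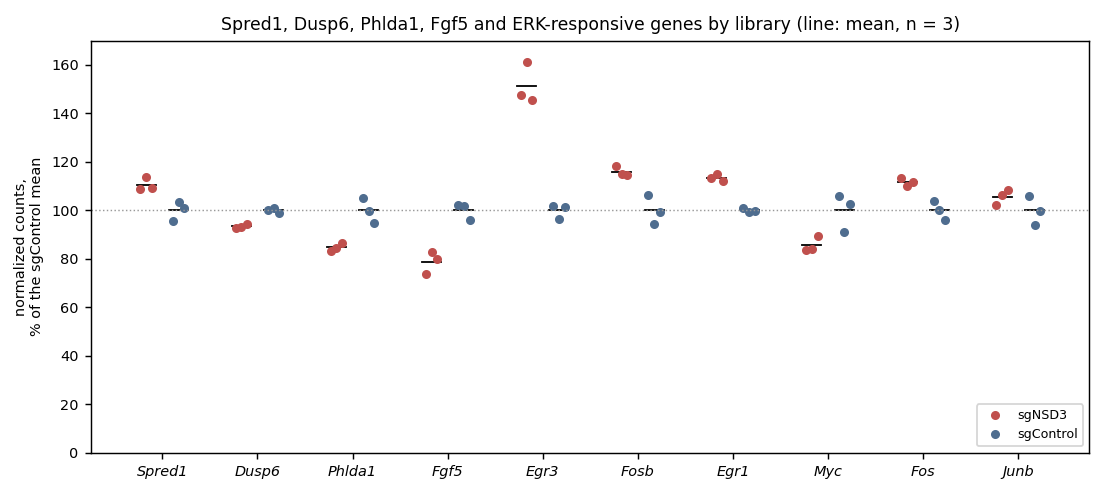
Normalized counts as a percentage of the sgControl mean (vertical axis, from 0) for 10 genes, 1 point per library, sgNSD3 left of sgControl, with the mean of 3 libraries as a line. Phlda1 sits at 83.1% to 86.5% and Fgf5 at 74.0% to 82.8% in sgNSD3 libraries, while Egr3 sits at 145% to 161%.

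Markers of 4 kinds of cell were summed in the same libraries. The summed level of 11 epithelial markers was 146.5 to 148 CPM (counts scaled to the library total) in sgNSD3 libraries and 207 to 225 in sgControl libraries. This sum was mostly Krt19, with means of 2676 normalized counts in sgNSD3 and 3911 in sgControl libraries. Of the 11, 4 were tested, all keratins, and 3 were lower, beside 6.44% of all tested genes. Cdh1, Krt5, Trp63, Cldn4 and Grhl2 lay below the filter. Epcam and Esrp1, a regulator of the epithelial splice form of Fgfr2, had 0 reads in the 6 libraries. The summed level of 11 mesenchymal markers was 58340 to 58690 CPM in sgNSD3 libraries and 52360 to 54350 in sgControl libraries. Of them 10 were tested, 4 were higher and 1, Pdgfra, was lower, beside 5.44% higher and 6.44% lower of all tested genes. The difference in the sum lies mainly in Col1a1, with means of 429900 normalized counts in sgNSD3 and 380600 in sgControl libraries, and Fn1, with 390400 in sgNSD3 and 306800 in sgControl libraries, both higher. Col1a2 averaged 280300 in sgNSD3 and 300500 in sgControl libraries and was not called. Fn1, Pdgfra and Col1a2 are named here after their values were seen. Immune markers (8, led by Csf1r, with Adgre1 and Cd3e at 0 reads) lay at 11.9 to 12.3 CPM in sgNSD3 and 11.6 to 12.4 in sgControl libraries, and endothelial markers (6) at 9.41 to 11.4 in sgNSD3 and 6.01 to 7.17 in sgControl libraries. The endothelial sum was mostly Kdr, with means of 190.1 normalized counts in sgNSD3 and 115 in sgControl libraries, and 4 of the 6 lay below the filter, Pecam1 and Cdh5 among them. The part of these differences in the levels of the FGF genes was not tested.

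The genes whose pattern over the 6 libraries was most like that of Spred1 were Larp1b, Glrx and Rsf1, with Pearson correlations of 0.998, 0.995 and 0.995. For Phlda1 they were Eef1a1, Rpl14 and Tmem192, at 0.997, 0.996 and 0.995. These are descriptions over 6 points in 2 conditions, chosen as the highest of 13102 genes compared. A correlation over 0.95 was reached by 107 genes for Spred1 and 210 genes for Phlda1. Of the 6 genes named, Rsf1 was called higher and Rpl14 lower in sgNSD3 libraries, and the other 4 were not called.

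For chromatin, the authors' deposited table gives each gene body 1 signed score for H3K27me3 and 2 for H3K36me2, headed sample 1 and sample 2. H3K27me3 is a mark of Polycomb-repressed genes, and H3K36me2 is the mark that NSD enzymes deposit over genes and between them. The sources used here do not say which libraries entered a score or in which order. The 2 H3K27me3 libraries have 1 column and the 4 H3K36me2 libraries have 2. A score could thus be a level of the mark or a difference between the conditions. The scores therefore place a gene among the 22470 gene bodies, and neither a level nor a direction between conditions is read from them. Over all gene bodies of the authors' deposited table the median score was -0.0258 for H3K27me3, 0.0757 for H3K36me2 sample 1 and 0.125 for sample 2. Scores above 0 were held by 31.5%, 89.4% and 92.4% of gene bodies in the authors' deposited table, in that order of columns.

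In H3K27me3, 4 of the 10 FGF genes had scores above 0 in the authors' deposited table: both receptors, Fgf7 and Fgf10. Fgfr2 scored 0.0845, above 88.5% of gene bodies, and Fgfr1 scored 0.0248, above 76.5%, in the authors' deposited table. None of the 5 feedback inhibitors was above 0, but most gene bodies of the authors' deposited table were not either. H3K27me3 scores above 0 were held by 31.5% of all gene bodies and 18.1% of those with tested RNA in the authors' deposited table. The lowest scores of the authors' deposited table among the 10 were those of Phlda1 (-0.0701, above 19.4% of gene bodies) and Spred1 (-0.0685, above 22.1%). Fgf7 scored 0.0517 in the authors' deposited table, above 82.8% of gene bodies. Fgf10 scored 0.0139 and Fgf2 -0.0258 in the authors' deposited table, above 72.5% and 48.6%.

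In H3K36me2 all 10 scores were above 0 in both columns of the authors' deposited table, as most gene bodies were. The 3 ligands lay above the median of the authors' deposited table in both columns, with Fgf7 at 0.167 and 0.395, above 92.0% and 99.0% of gene bodies. Fgf10 scored 0.141 and 0.265 and Fgf2 0.116 and 0.247 in the authors' deposited table. Of the 19 other FGF ligands, 11 lay above the median of the authors' deposited table in sample 1 and 9 in sample 2. The receptors stood low in sample 2 of the authors' deposited table, where Fgfr1 scored 0.0456 and Fgfr2 0.0595, above 18% and 22.8% of gene bodies. In sample 1 of the authors' deposited table Fgfr1 scored 0.0518, above 36.3%, but Fgfr2 scored 0.101, above 66.1%. The 3 genes called in RNA did not share a position. Phlda1 was high in both columns of the authors' deposited table (0.193 and 0.278, above 96.2% and 94.0% of gene bodies). Spred1 was high in sample 1 and low in sample 2 of the authors' deposited table (above 86.2% and 27.8% of gene bodies). Dusp6 was the reverse in the authors' deposited table (above 12.4% and 74.9%). Of the Sprouty genes, Spry2 was below the median in both columns of the authors' deposited table (0.0516 and 0.00923, above 35.0% and 8.91% of gene bodies). Spry4 stood at 0.0263 and 0.155 in the authors' deposited table, above 22.9% and 63.9%. With 1 score per column no spread between replicates can be given.

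**Figure D5:**
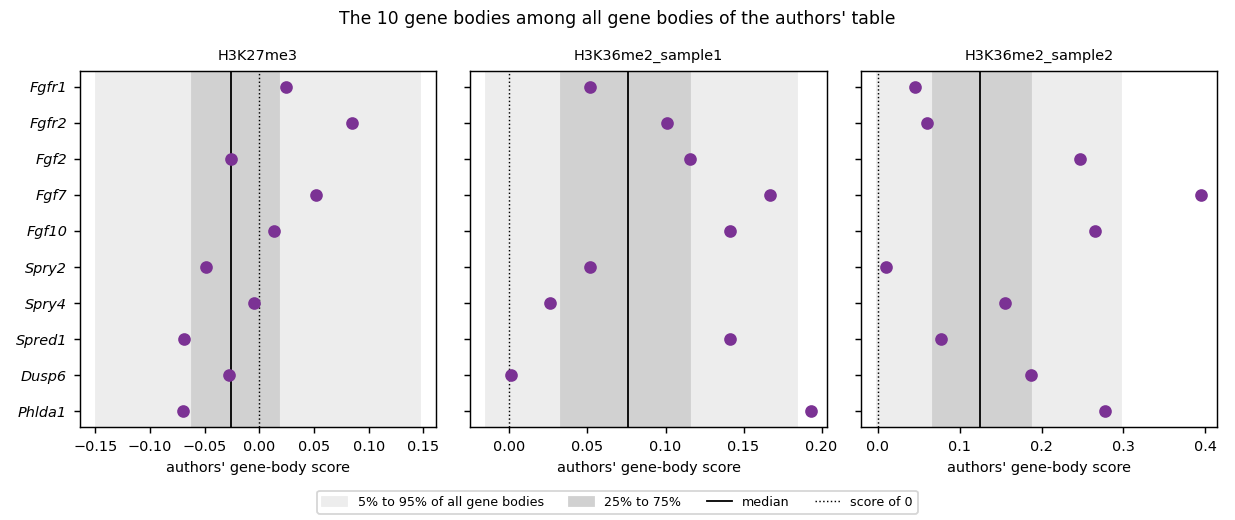
The authors' deposited gene-body scores of the 10 genes (horizontal axes, 1 panel per column of the table, no unit given), over grey bands for the middle ranges of all 22470 gene bodies, a solid line at the median and a dotted line at 0. The 3 ligands lie right of the median in both H3K36me2 panels. The 2 receptors lie left of it in sample 2, but Fgfr2 lies right of it in sample 1. The 5 feedback inhibitors lie left of 0 in H3K27me3, as most gene bodies do.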

How the data were processed

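The tools named in the submitters' processing notes are HISAT2, featureCounts and DESeq2, with the mm10 build; their versions and settings are not given in the sources used here. The RNA values were deposited by the authors on a log2 scale, and their form is that of DESeq2's variance-stabilising transform, with 0 reads at 8.45. Inverting that transform gave whole read counts within 0.05 for 100% of values, which were divided by the implied size factors (normalized counts). The chromatin scores were deposited by the authors as 1 signed score per gene body and column. There were 0 other value columns.

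Differences in RNA were tested by limma 3.58.1 (R 4.3.3; mean-variance trend, two-sided, Benjamini-Hochberg adjustment, threshold 0.05) on the deposited log2 values of genes averaging at least 8 normalized counts. Log2 folds, SEs and intervals are on log2(normalized count + 1), which understates changes of low genes. The script was tested on simulated data. Tables were handled in Python 3.11.15 with pandas 2.3.3 and scipy 1.17.1. Alternatives were another pseudocount (8), filter (no minimum, or 32), scaling (quantile or library total), variance model (voom, no trend), a replicate block, and leaving out each library. Replicate numbers follow the sample titles; sgNSD3 libraries 1, 2 and 3 are the deposited columns numbered 3, 1 and 2.

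The 10 genes and all lists were chosen with earlier results of these data known, so patterns already seen there are not independent support. The 10 genes were named in full. From each pathway list, up to 4 called genes with the largest difference on the deposited log2 scale, an order that folds can change, and up to 2 more with the highest level were named, and from each marker list the highest gene and those at 0. Of these, 1 gene is not reported here. Names and coordinates are from RefSeq GRCm38.p6.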

Additional observations from a re-analysis of the deposited data

How the results depend on the processing

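Over all tested genes, leaving out 1 library gave 639 to 998 higher and 709 to 1166 lower calls, against 994 and 1176 with all 6. The counts were 639 to 658 higher and 709 to 773 lower in the fits without 1 of the sgNSD3 libraries, against 754 to 998 higher and 932 to 1166 lower without 1 of the sgControl libraries; the cause was not tested. Among the 10 FGF genes, leaving out 1 library gave 0 to 2 higher calls (0 without sgNSD3 replicate 2, 2 without sgControl replicate 1) and 1 to 2 lower calls. The lower count was 1, Phlda1 without Dusp6, under quantile normalization, scaling by library total and no mean-variance trend; the cause was not tested. On the deposited log2 scale, Fgf2 differed by -0.006, by 0.001 under quantile normalization, and by -0.021 to 0.01 with 1 library left out, so its sign is not set. Of the 144 values of the FGF genes under alternatives, 132 kept direction and side of the threshold. Deviations from the condition means correlated little between libraries that share a replicate number. The correlations were 0.046, 0.0163 and -0.0134 for title numbers and -0.0663, -0.00654 and -0.0397 for column numbers. Whether the samples were paired is not settled by these values. A replicate block by title number gave 1119 higher and 1333 lower calls, one by column number 919 and 1086, and both kept 1 higher and 2 lower FGF genes. Depth limits Fgf7 and the untested ligands.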

Other observations

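Read ratios between 2 genes of the same library do not depend on how libraries were scaled. The pairs were chosen after their values were seen, so they carry no test. Each sets a gene with a positive log2 fold over a gene with a negative log2 fold, so a higher mean ratio in sgNSD3 libraries follows from the choice. Fgfr1 reads over Fgfr2 reads gave 1.35, 1.41 and 1.40 in sgNSD3 libraries and 1.30, 1.17 and 1.18 in sgControl libraries, and neither receptor was called. Spred1 reads over Phlda1 reads gave 2.39, 2.46 and 2.31 in sgNSD3 libraries and 1.67, 1.89 and 1.94 in sgControl libraries. Spred1 over Dusp6 gave 0.413, 0.430 and 0.409 in sgNSD3 libraries and 0.338, 0.361 and 0.360 in sgControl libraries. Spry2 over Spry4 gave 1.19, 1.17 and 1.34 in sgNSD3 libraries and 1.12, 1.14 and 1.04 in sgControl libraries. In the receptor ratio the sgControl library nearest to sgNSD3 was replicate 1.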
